A study of Homo sapiens with 4 samples.

Results

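The transcripts described here are those of the 8 subunits of the chaperonin CCT (TCP1, CCT2, CCT3, CCT4, CCT5, CCT6A, CCT7 and CCT8) and of the chaperonin-like genes BBS10 and MKKS, measured by RNA-seq in H1299 cells with and without HgCl2. The members were chosen by gene symbol, with earlier results of these counts known, and every listed transcript of the 10 genes was taken. They are 111 of the 227368 transcripts in the tables, and 104 of them belong to the 8 CCT genes. Of the 111, 48 have a count in any column, 63 are listed at 0 in all 4 columns, and 33 passed the filter of a mean FPKM (fragments per kilobase, scaled to the size of the library) above 1 in at least one group. These 33 are 32 transcripts of the CCT genes and the sole transcript of BBS10.

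CCT, also called TRiC, is a cytosolic folding machine built of stacked rings, each of 8 different subunits that bind ATP. It is known for folding actin and the tubulins, and for receiving unfolded chains from prefoldin. BBS10 and MKKS (also named BBS6) are relatives of the CCT subunits that do not form rings of their own. Together with BBS12 and CCT they help to assemble the BBSome, the coat complex that carries membrane proteins to the cilium, and mutations in these genes cause Bardet-Biedl syndrome.

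H1299 is a human non-small-cell lung carcinoma line. One group was treated with HgCl2 at 5 μM for 48 h and the control group with the solvent EtOH for the same time; the treatment text of the labels gives the HgCl2 to every sample, whereas the study's methods give solvent to the controls. Poly-A RNA was sequenced, with 2 columns of values a group, labelled replicates 1 and 2. All samples are of 1 cell line, and the labels name no separate cultures, while the study's text describes its replicates as biologically independent.

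Replicates 1 and 2 of a group were closer to each other than sampling noise alone would make them. The variance of their differences was 0.505 times that of independent counts in EtOH (12382 transcripts) and 0.516 times in HgCl2 (10611 transcripts), against 31.9 times for a column of each group. Over the members alone the ratios were 0.518 in EtOH (23 transcripts) and 0.375 in HgCl2 (15 transcripts). Each group was therefore counted as 1 sample, no p-value is given, and the differences have no replicate check. Changes are log2 fold changes of HgCl2 against EtOH from an edgeR fit, with 95% Clopper-Pearson intervals of the mean counts that cover counting error only. A transcript is called higher or lower at a fold change of at least 2. In these bulk samples, fewer cells with a transcript and less of it per cell cannot be told apart.

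Total counts were 5051958 and 5053120 for EtOH and 4722772 and 4720978 for HgCl2. The mitochondrial genome held 24.8% of the counts in each EtOH column and 17.9% in each HgCl2 column. Of the markers of the line, VIM (vimentin) had 620 and 628 counts in EtOH and 501 and 511 in HgCl2. KRT8, an epithelial keratin, had 53 and 58 counts in EtOH and 4 in each HgCl2 column. KRT18 had 23 and 24 counts in EtOH and 18 and 31 in HgCl2. COL1A1, a fibroblast collagen, had 13 and 18 counts in EtOH and 3 and 4 in HgCl2. KRT19, EPCAM, SFTPC and PTPRC were listed at 0 in every column, and NKX2-1 had 2 counts in 1 EtOH column. The part of these differences in the values of the CCT genes was not tested.

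Where the reads fell within a transcript is not given. Most members with a count have bases that no other listed transcript covers. A run of at least 75 such bases on either strand, the length of 1 sequenced read, was found in 47 members, and 40 of them had a count. Of the 17 members whose longest run was 1 to 74 bases 6 had a count, and of the 47 with none 2 had a count. The canonical mRNAs of CCT2, CCT7 and CCT8 share every base with another listed transcript, that of CCT3 has 1 base of its own, and all 4 were listed at 0 in every column. The canonical mRNA of TCP1 has 161 bases of its own among 2352 and another 305 that are its own on its strand only, that of CCT4 has 130 among 2376, and that of CCT6A has 107 among 2584. The canonical mRNA of CCT5 has 1311 own bases among 3293 on its strand and none when both strands are taken, because a long noncoding RNA that was listed at 0 lies opposite. BBS10 has 1 transcript in the tables, and all 3568 of its bases are its own. There were exceptions, as the CCT5 mRNA had a mean of 138 counts in EtOH. The leading transcript of TUBA1A, which is not a member, had 0 own bases and a mean of 368.5 in EtOH. With that limit, the values below are read as values of single transcripts and mostly of short windows, not as levels of the genes.

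**Figure D1:**
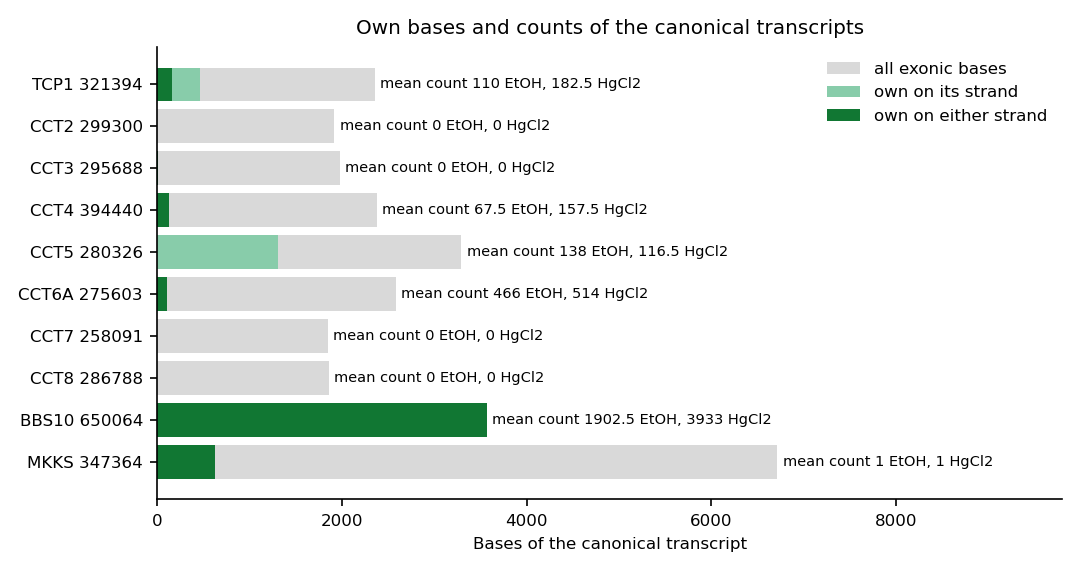
Bars give the length of the canonical transcript of each of the 10 genes in bases (x axis), with the bases that no other listed transcript covers on either strand in dark green, those covered only from the opposite strand in light green, and the mean counts of the 2 groups printed beside. CCT2, CCT3, CCT7 and CCT8 have at most 1 own base and 0 counts, while BBS10 is its own over its whole length and has the highest counts.

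The coding windows of the CCT4 and CCT6A mRNAs, which no other listed transcript covers, are shown here. Windows of intronic transcripts that are compared with each other below follow. Capitals mark the bases that only the named transcript covers, and the 10 bases on either side are in lower case. All are on GRCh38 and are written 5′ to 3′ on the strand of the gene. The CCT4 window is the whole of exon 3, a coding exon (chr2:61883459-61883548, minus strand), and the CCT6A mRNA window lies in coding exon 3 (chr7:56054369-56054475, plus strand).
CCT4 ENST00000394440: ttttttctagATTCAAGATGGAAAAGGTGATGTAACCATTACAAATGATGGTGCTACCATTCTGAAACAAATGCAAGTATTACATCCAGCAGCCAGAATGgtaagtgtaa
CCT6A ENST00000275603: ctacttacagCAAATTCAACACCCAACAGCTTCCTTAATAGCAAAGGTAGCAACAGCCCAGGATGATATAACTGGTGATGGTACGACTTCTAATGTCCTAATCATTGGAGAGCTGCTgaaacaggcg
The flanks of the CCT4 window hold the splice acceptor and the splice donor of the exon. The CCT6A window starts at the acceptor of exon 3 and ends within the exon.

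The next windows are intronic. Those of CCT5 ENST00000511995 (chr5:10262202-10262480) and ENST00000423695 (chr5:10261746-10261974) both lie in intron 8 of the canonical transcript, and that of ENST00000508451 (chr5:10254839-10255030) lies in intron 3. CCT6A ENST00000492618 (chr7:56061850-56062059) has its own bases at the start of intron 12, and ENST00000466479 (chr7:56062619-56062682) at its end. TCP1 ENST00000546204 (chr6:159780088-159780249, minus strand) has its longer window in intron 9, just downstream of the small nucleolar RNA SNORA20. They are annotated as retained introns, RNAs that keep part of an intron.
CCT5 ENST00000511995: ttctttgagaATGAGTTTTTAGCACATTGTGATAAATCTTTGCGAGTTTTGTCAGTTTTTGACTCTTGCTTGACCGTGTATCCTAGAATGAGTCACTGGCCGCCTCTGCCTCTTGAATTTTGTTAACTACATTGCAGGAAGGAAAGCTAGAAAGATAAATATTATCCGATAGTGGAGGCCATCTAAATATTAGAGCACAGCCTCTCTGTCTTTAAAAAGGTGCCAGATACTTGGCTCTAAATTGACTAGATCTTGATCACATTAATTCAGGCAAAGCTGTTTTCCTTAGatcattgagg
CCT5 ENST00000423695: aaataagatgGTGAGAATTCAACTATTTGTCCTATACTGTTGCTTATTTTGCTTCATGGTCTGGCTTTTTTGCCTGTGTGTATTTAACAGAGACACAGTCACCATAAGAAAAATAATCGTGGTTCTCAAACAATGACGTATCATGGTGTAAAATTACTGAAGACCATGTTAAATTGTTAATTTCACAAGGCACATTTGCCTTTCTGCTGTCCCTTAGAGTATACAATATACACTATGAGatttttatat
CCT5 ENST00000508451: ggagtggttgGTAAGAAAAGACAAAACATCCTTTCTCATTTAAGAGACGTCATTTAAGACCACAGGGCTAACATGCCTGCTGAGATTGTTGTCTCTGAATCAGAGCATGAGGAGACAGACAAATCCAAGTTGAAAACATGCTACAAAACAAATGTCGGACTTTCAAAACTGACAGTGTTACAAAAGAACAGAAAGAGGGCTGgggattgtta
CCT6A ENST00000492618: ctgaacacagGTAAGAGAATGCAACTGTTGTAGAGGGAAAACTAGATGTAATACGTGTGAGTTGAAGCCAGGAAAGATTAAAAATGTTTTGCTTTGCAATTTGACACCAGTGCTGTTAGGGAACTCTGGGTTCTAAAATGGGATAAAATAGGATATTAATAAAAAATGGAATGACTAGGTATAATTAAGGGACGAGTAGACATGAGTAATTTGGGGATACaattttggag
CCT6A ENST00000466479: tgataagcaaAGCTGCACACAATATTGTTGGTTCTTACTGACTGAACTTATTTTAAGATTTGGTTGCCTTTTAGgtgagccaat
TCP1 ENST00000546204: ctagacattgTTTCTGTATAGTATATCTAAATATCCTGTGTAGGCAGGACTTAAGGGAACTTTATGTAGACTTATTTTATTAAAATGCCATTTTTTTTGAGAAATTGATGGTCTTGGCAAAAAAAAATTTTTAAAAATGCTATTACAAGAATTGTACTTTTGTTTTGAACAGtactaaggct
The TCP1 window has the lowest GC content of the windows shown, 26.5%, and the CCT6A coding window the highest, 43%.

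BBS10 had the highest counts of the members and was higher in HgCl2. Its mRNA ENST00000650064 (chr12:76344474-76348415, minus strand) had 1907 and 1898 counts with EtOH and 3907 and 3959 with HgCl2. The HgCl2 columns were both above the EtOH columns. As the columns of a group are closer than sampling noise, a lack of overlap between groups carries no replicate information, here and below. The log2 fold change was 1.19 (95% interval 1.11 to 1.27), or 2.28-fold. BBS10 was put among the members with this difference known, so the value is a description. Its deposited FPKM was 97.3 and 96.8 in EtOH and 249 and 252 in HgCl2.

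Few transcripts of that depth were called. Of the 850 tested transcripts that reached a mean of 1000 counts over all columns, 2% were at least 2-fold higher and 0.588% at least 2-fold lower. BBS10 ranked 10 by log2 fold change, which is a description, as it was chosen with that value known. Among those next above it were ERRFI1 (a feedback inhibitor of the EGF receptor) at 1.22 and MBOAT2 (an acyltransferase of phospholipids) at 1.20. Next below were RHOB (a small GTPase) at 1.15, RBM18 at 1.15 and the noncoding ENSG00000237550 at 1.13. MBOAT2 and RBM18 had means of 695.5 and 802.5 in EtOH and passed 1000 through HgCl2. The counts on all CCT transcripts together were 1438 and 1433 in EtOH and 1666 and 1629 in HgCl2, fewer than on BBS10 alone. All bases of BBS10 are its own, while the canonical mRNAs of CCT2, CCT3, CCT7 and CCT8 were listed at 0. This is therefore not a comparison of gene levels.

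The order of the levels depends on the length they are set against. By deposited FPKM, which divides by the whole transcript, BBS10 was the highest member in EtOH at 97.1, followed by the CCT6A retained intron ENST00000492618 at 52.7 and the CCT6A mRNA at 32.8. Per kilobase of bases that are its own on either strand, the CCT6A mRNA was the highest at 4355 counts in EtOH, followed by ENST00000492618 at 955 and the TCP1 mRNA at 683. The study's text calls its RNA-seq directional, while the strand setting of the counting is not given. If the counting kept strands apart, the TCP1 mRNA had 466 own bases and 236 counts per kilobase, below BBS10 and CCT4. The CCT5 mRNA then had 105, and without regard to strand it has no own base to divide by. On either scale BBS10 had 533 counts in EtOH and the CCT4 mRNA 519, and in HgCl2 they had 1102 and 1212. Of these, BBS10 and CCT4 lay close together in both groups. Counts per own kilobase take no account of the length of a read, which matters most in short windows. The own bases of the CCT4 mRNA lie in windows of 90 and 40 bases, and those of BBS10 in windows of 3314 and 254. The CCT6A mRNA has a window of 107 and the TCP1 mRNA 1 of 161 on either strand. The closeness of BBS10 and CCT4, and the order on this scale, are therefore not read as a comparison of levels.

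MKKS, whose protein works beside BBS10, had 1 count in each EtOH column, and 0 and 2 with HgCl2. These fell on ENST00000347364, which has 620 bases of its own. The other 5 MKKS transcripts were listed at 0, and no change can be given at this depth.

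Among the tested members, 8 were called higher and 10 lower, and 15 were neither. Over all 17547 tested transcripts 19.2% were higher and 34.1% lower, so the counts of members called lie near the background and are no result about the members. The median log2 fold change of the 33 was -0.27 (-0.35 over the 30 that can be given a value when a mean of at most 3 counts is set to 3), against -0.21 over all tested transcripts. In 8 of the 18 calls a group had a mean of at most 3 counts, and in 3 of these both groups did.

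Of the 10 members that reached a mean of 30 counts over all columns, 4 were higher and 0 lower. Of the 7107 tested transcripts with such a mean 15.5% were higher and 9.53% lower. The 4 were BBS10, the CCT4 mRNA, CCT5 ENST00000511995 and CCT6A ENST00000466479. BBS10 was chosen with its difference known, and ENST00000466479 had a mean of 29.0 in EtOH and passed 30 through HgCl2, so the count is a description and nothing is read from it. Of the 23 tested members under 30 counts, 4 were higher and 10 lower. Over all tested transcripts 19.2% were higher and 34.1% lower. As both shares were smaller at a mean of at least 30, they are larger than this under 30 counts. Nothing is read from the count of these members either.

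**Figure D2:**
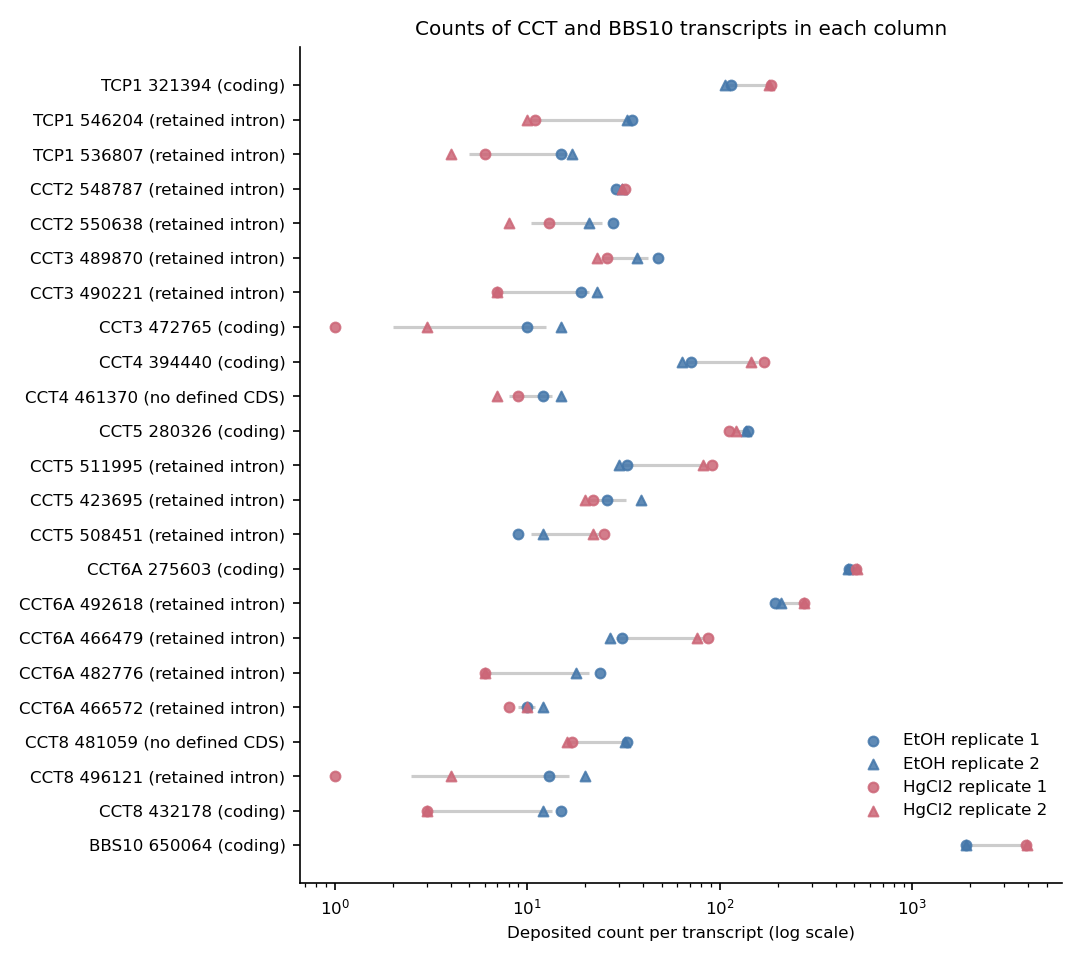
Each row is a member with a mean of at least 10 counts in either group, and the x axis is the deposited count on a log scale. Blue marks are the EtOH columns, red marks the HgCl2 columns, and grey lines join the group means; the 2 columns of a group lie close together wherever counts are high.

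The leading transcript of a gene is the one with the highest mean count, and for 4 of the 8 CCT genes it was the canonical mRNA. These mRNAs code for the alpha (TCP1), delta (CCT4), epsilon (CCT5) and zeta (CCT6A) subunits. CCT4 ENST00000394440 had 71 and 64 counts in EtOH and 169 and 146 in HgCl2, and the groups did not overlap. Its log2 fold change was 1.36 (0.95 to 1.80), the only one of the 4 past 2-fold. TCP1 ENST00000321394 had 114 and 106 counts in EtOH and 185 and 180 in HgCl2, again without overlap, for a log2 fold change of 0.87 (0.52 to 1.23).

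The CCT6A and CCT5 mRNAs differed less. CCT6A ENST00000275603 had 469 and 463 counts in EtOH and 511 and 517 in HgCl2, with a log2 fold change of 0.28 (0.10 to 0.47). CCT5 ENST00000280326 had 140 and 136 counts in EtOH and 111 and 122 in HgCl2, with a log2 fold change of -0.10 (-0.47 to 0.27) whose sign turned with the scaling, to 0.07 from FPKM with a pseudocount of 0.1. The median of the 8 leading transcripts was 0.25. The 161 bases of the TCP1 mRNA that are its own on either strand are in its last exon. The other 305 lie opposite exons of ACAT2, and the strand setting of the counting is not given in the sources used here. The ACAT2 mRNA ENST00000367048 had 74 and 68 counts in EtOH and 24 and 29 in HgCl2, and ACAT2 ENST00000472052 had 7 in each EtOH column and 26 and 32 in HgCl2. The part of ACAT2 reads in the TCP1 value was not tested.

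The leading transcripts of the other 4 subunits were not mRNAs with a full coding sequence. CCT2 (beta) was led by the retained intron ENST00000548787, with 29 and 31 counts in EtOH and 32 and 31 in HgCl2 and a change of 0.21 (-0.55 to 0.99). CCT3 (gamma) was led by the retained intron ENST00000489870, with 48 and 37 counts in EtOH and 26 and 23 in HgCl2 and a change of -0.65 (-1.43 to 0.10). CCT8 (theta) was led by ENST00000481059, which has no defined coding sequence, with 33 and 32 counts in EtOH and 17 and 16 in HgCl2 and a change of -0.83 (-1.78 to 0.06). The groups overlapped for CCT2 and not for CCT3 and CCT8, but the intervals of all 3 include 0. CCT7 (eta) was led by ENST00000461290, with 2 counts in each EtOH column and 6 and 5 in HgCl2, too few to give a direction (1.54, -0.94 to 4.97).

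**Figure D3:**
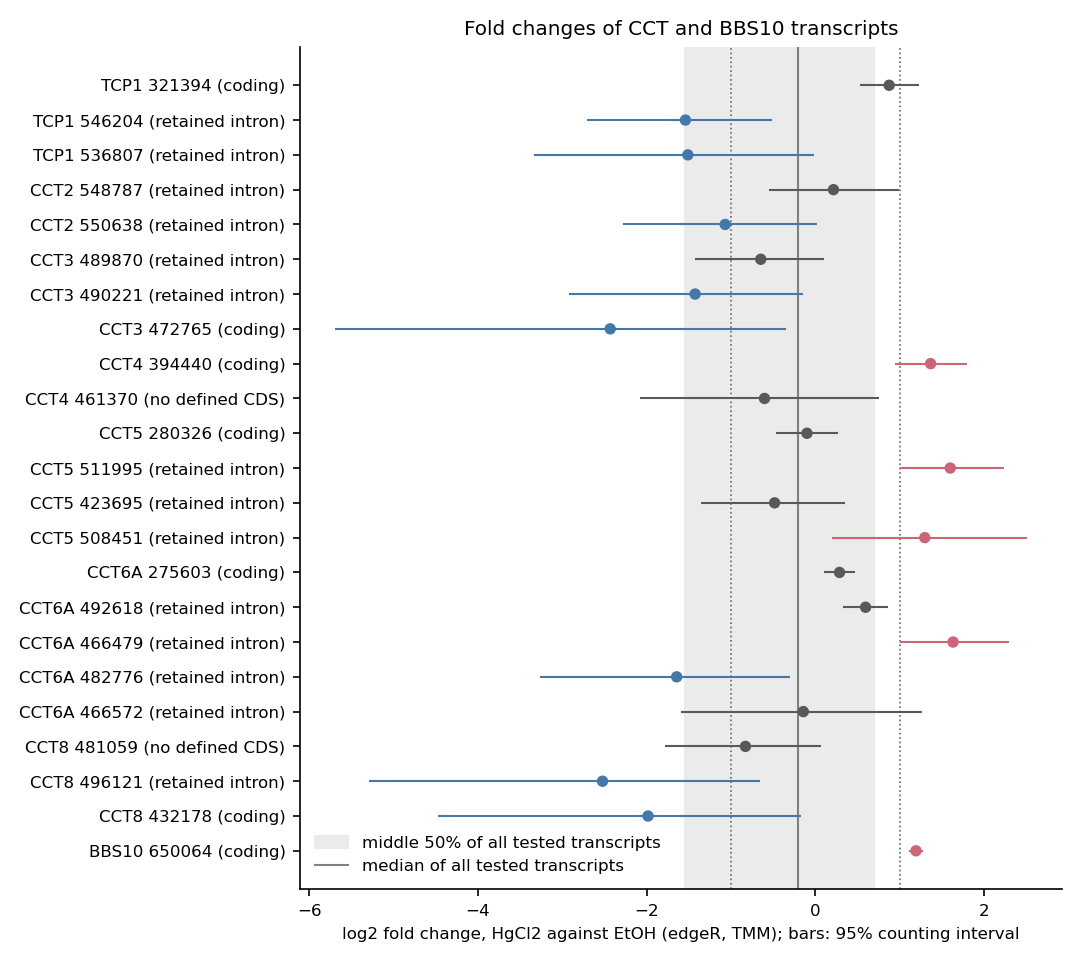
Points are the log2 fold changes of the members with a mean of at least 10 counts in either group (x axis), with their 95% counting intervals, in red for at least 2-fold higher, blue for at least 2-fold lower and grey for neither. The grey band holds the middle 50% of all 17547 tested transcripts, from -1.54 to 0.69, and the BBS10 interval is the narrowest.

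Retained introns made up most of the tested members. Of 36 such transcripts 24 were tested, 6 were higher and 8 lower. Over the 3993 tested retained introns of all genes 25.1% were higher and 35.7% lower, so these shares too lie near the background. Together the retained introns of the CCT genes had 565 and 578 counts in EtOH and 653 and 629 in HgCl2. The coding transcripts of the CCT genes had 819 and 800 in EtOH and 981 and 973 in HgCl2.

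Within CCT5 the intronic transcripts differed in the size of their change. ENST00000511995, in intron 8, had 33 and 30 counts in EtOH and 91 and 82 in HgCl2, with a log2 fold change of 1.60 (1.0 to 2.24). ENST00000508451, in intron 3, had 9 and 12 counts in EtOH and 25 and 22 in HgCl2, with a change of 1.30 (0.20 to 2.51). ENST00000423695, also in intron 8, had 26 and 39 counts in EtOH and 22 and 20 in HgCl2, with a change of -0.48 (-1.35 to 0.35). The first and second had no overlap between groups and were called higher, while the third was not called.

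Ratios of transcripts of the same gene do not depend on the scaling of the columns. For every 100 counts of the CCT5 mRNA, ENST00000511995 had 22.8 in EtOH and 74.2 in HgCl2, a change of 1.70 on the log2 scale (approximate 95% interval 1.01 to 2.39). Against ENST00000423695, whose window lies in the same intron, its ratio went from 0.969 to 4.12, a change of 2.09 (1.10 to 3.07). ENST00000508451 had 7.61 for every 100 of the mRNA in EtOH and 20.2 in HgCl2. The pair in intron 8 was chosen after its values were seen.

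CCT6A had intronic transcripts with changes in both directions. ENST00000492618, at the start of intron 12, had 194 and 207 counts in EtOH and 273 and 275 in HgCl2, with a log2 fold change of 0.59 (0.33 to 0.86). ENST00000466479, at the other end of that intron, had 31 and 27 counts in EtOH and 87 and 76 in HgCl2, with a change of 1.63 (1.01 to 2.30). ENST00000482776, in intron 8, had 24 and 18 counts in EtOH and 6 in each HgCl2 column, with a change of -1.64 (-3.26 to -0.31). ENST00000466572, in intron 9, had 10 and 12 counts in EtOH and 8 and 10 in HgCl2, and its groups overlapped. For every 100 counts of the CCT6A mRNA, ENST00000466479 had 6.22 in EtOH and 15.9 in HgCl2, and ENST00000482776 had 4.51 and 1.17. The ratio of the pair in intron 12, also chosen after its values were seen, went from 0.145 to 0.297, a change of 1.04 (0.37 to 1.71).

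In TCP1, 2 of the intronic transcripts were called lower while the mRNA was not. Another tested one, ENST00000467544, had 7 and 5 counts in EtOH and 2 and 6 in HgCl2. Its groups overlapped and it was not called, at -0.43 (-2.71 to 1.63). ENST00000546204 had 35 and 33 counts in EtOH and 11 and 10 in HgCl2, with a log2 fold change of -1.54 (-2.71 to -0.52). ENST00000536807, in intron 5, had 15 and 17 counts in EtOH and 6 and 4 in HgCl2, with a change of -1.51 (-3.34 to -0.02). For every 100 counts of the TCP1 mRNA, ENST00000546204 had 30.9 in EtOH and 5.75 in HgCl2, a change of -2.43 (-3.48 to -1.37). SNORA20, next to its window, had 6 and 5 counts in EtOH and 1 and 2 in HgCl2.

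CCT4 had 1 other transcript with counts. ENST00000461370, which has no defined coding sequence and an exon of its own in intron 1, had 12 and 15 counts in EtOH and 9 and 7 in HgCl2. Its change was -0.60 (-2.08 to 0.75). For each count of the CCT4 mRNA it had 0.2 in EtOH and 0.0508 in HgCl2, a change of -1.98 (-3.30 to -0.65).

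**Figure D4:**
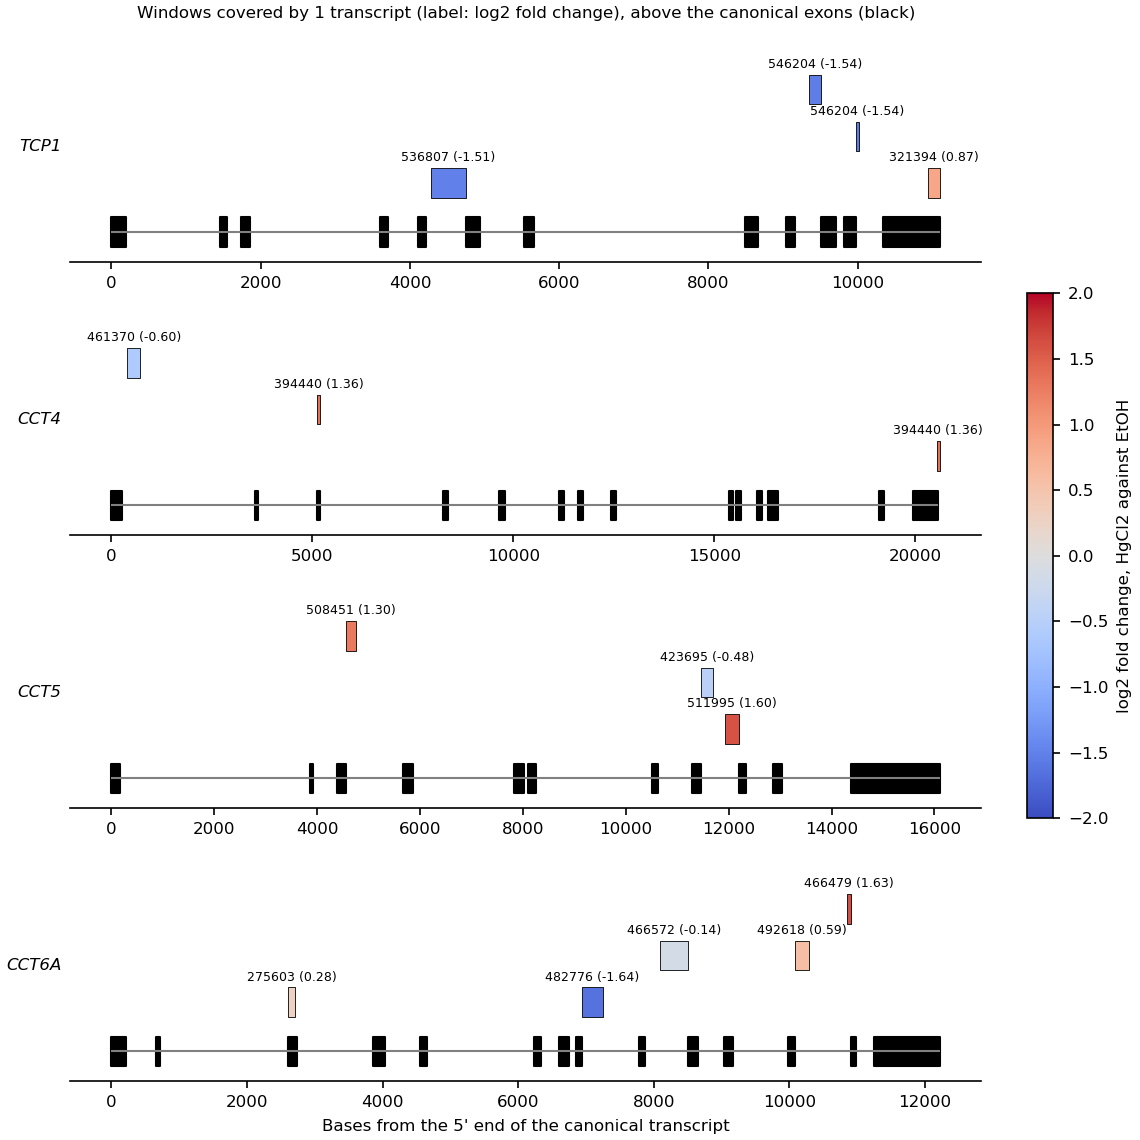
Above the canonical exons (black) of TCP1, CCT4, CCT5 and CCT6A, boxes mark the windows that a single transcript covers, labelled with the last 6 digits of its identifier and its log2 fold change, which also sets the colour. The x axis is the distance in bases from the 5′ end of the canonical transcript. Labelled values of both signs stand side by side within each gene. Among the windows drawn, only CCT6A holds both a higher and a lower call.

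In CCT2, CCT3 and CCT8 the other 5 transcripts with at least 10 counts in a group were called lower, beside 34.1% of all tested transcripts. All 5 had a mean under 30 counts over the columns. The share called lower was 9.53% at a mean of at least 30, so under 30 it is above 34.1%. Nothing is read from these 5 calls as a set. CCT2 ENST00000550638 had 28 and 21 counts in EtOH and 13 and 8 in HgCl2, for a log2 fold change of -1.07 (-2.28 to 0.02). CCT3 ENST00000490221 had 19 and 23 counts in EtOH and 7 in each HgCl2 column, for -1.43 (-2.92 to -0.15). CCT3 ENST00000472765, a coding transcript whose 113 own bases form an untranslated exon, had 10 and 15 counts in EtOH and 1 and 3 in HgCl2, for -2.43 (-5.70 to -0.35).

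CCT8 ENST00000496121 had 13 and 20 counts in EtOH and 1 and 4 in HgCl2, for a log2 fold change of -2.52 (-5.30 to -0.66). CCT8 ENST00000432178, a coding transcript with 215 own untranslated bases, had 15 and 12 counts in EtOH and 3 in each HgCl2 column, for -1.98 (-4.47 to -0.17). Summed over its transcripts, CCT8 had 66 counts in each EtOH column and 23 and 25 in HgCl2, and CCT3 had 83 and 79 in EtOH and 38 and 36 in HgCl2. CCT4 summed to 83 and 79 counts in EtOH and 178 and 153 in HgCl2. The summed log2 fold changes were -1.32 (-2.06 to -0.63) for CCT8, -0.99 (-1.59 to -0.41) for CCT3 and 1.17 (0.78 to 1.57) for CCT4. The CCT4 sum is mostly its canonical mRNA, with a mean of 67.5 of 81 counts in EtOH and 157.5 of 165.5 in HgCl2. The canonical mRNAs of CCT3 and CCT8 had 0 counts. These sums thus hold unlike transcripts, and their opposite signs are not read as a difference between the subunit genes.

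For the other subunits the sums differed less. TCP1 summed to 172 and 166 counts in EtOH and 208 and 206 in HgCl2, a log2 fold change of 0.43 (0.13 to 0.73). CCT5 had 221 and 232 in EtOH and 259 and 254 in HgCl2, or 0.32 (0.05 to 0.58). CCT6A had 728 in each EtOH column and 888 and 887 in HgCl2, or 0.42 (0.28 to 0.57). CCT2 had 80 in each EtOH column and 61 and 58 in HgCl2, or -0.29 (-0.80 to 0.21).

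Promoters are printed for BBS10, CCT4 and TCP1, whose mRNA had counts of its own. They come from RefSeq (GRCh38.p14) and hold 250 bases before and 50 after a start site; 12 promoters of 9 of the 10 genes matched by symbol, and those printed have the start of the canonical mRNA as their start site. Capitals mark motifs found on either strand, namely the heat shock elements GAANNTTC and TTCNNGAA, the ETS motif CCGGAAG, the CCAAT box, the metal response element TGCACNC or TGCGCNC, and the NRF2 motif TGACNNNGC. The motifs may overlap each other, and GC boxes (GGGCGG), in 45% of all promoters, were not marked.
BBS10, chr12:76348366-76348665, minus strand: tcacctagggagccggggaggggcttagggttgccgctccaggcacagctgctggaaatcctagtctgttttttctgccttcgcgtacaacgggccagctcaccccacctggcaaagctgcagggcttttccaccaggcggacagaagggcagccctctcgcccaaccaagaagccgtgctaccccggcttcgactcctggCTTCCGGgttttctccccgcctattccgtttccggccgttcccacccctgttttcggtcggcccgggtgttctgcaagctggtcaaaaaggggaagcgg
CCT4, chr2:61888607-61888906, minus strand: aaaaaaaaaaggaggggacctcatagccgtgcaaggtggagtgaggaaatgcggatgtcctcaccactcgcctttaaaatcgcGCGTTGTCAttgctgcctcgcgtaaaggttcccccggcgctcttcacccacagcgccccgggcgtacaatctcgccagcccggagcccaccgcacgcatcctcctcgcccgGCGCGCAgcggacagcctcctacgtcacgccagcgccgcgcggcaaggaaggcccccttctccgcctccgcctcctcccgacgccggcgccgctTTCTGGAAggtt
TCP1, chr6:159789553-159789852, minus strand: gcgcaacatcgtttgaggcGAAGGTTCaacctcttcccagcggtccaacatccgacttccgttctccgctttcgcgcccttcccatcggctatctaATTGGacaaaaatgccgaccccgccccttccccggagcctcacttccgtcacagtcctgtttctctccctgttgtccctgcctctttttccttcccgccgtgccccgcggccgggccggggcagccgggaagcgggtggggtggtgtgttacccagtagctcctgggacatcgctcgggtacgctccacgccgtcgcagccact
The BBS10 promoter holds an ETS motif that begins at position -49, as do 10.3% of the 35116 promoters in the table somewhere in their window. The CCT4 promoter holds TGACNNNGC at -167 (13.3% of all promoters), a metal response element at -56 (29.6%) and TTCNNGAA at 39 after the start (7.74%). The TCP1 promoter holds GAANNTTC at -231 (6.77%) and CCAAT at -154 (34.6%). A metal response element was also found in the CCT3 promoter. A match is a description of the letters and was not tested against the counts.

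The partners of the chaperonins were taken from lists of genes and counted by their leading transcript, of which many are retained introns. The background for each list is the 19.2% higher and 34.1% lower over all tested transcripts, and with so few genes a list no share is read from it. Of the 6 prefoldin subunits, which hand unfolded chains to CCT, 4 were tested, 0 were called higher and 2 lower. PFDN2 had 46 and 50 counts in EtOH and 3 in each HgCl2 column, a log2 fold change of -3.80 (-6.18 to -2.22). PFDN6 had 10 and 7 counts in EtOH and 0 in HgCl2, at least 2.57-fold lower against a floor of 3 counts per group mean. PFDN4, with 346 and 366 counts in EtOH and 353 and 343 in HgCl2, was at 0.11, and PFDN5 was highest at 0.36. The median of the 4 was -1.85, or -0.62 with means of at most 3 counts set to 3, and the sign turned to 0.11 over the 3 that reached 30 counts in a group.

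Of the prefoldin-like genes, 3 were tested and 2 called lower, with a median of -1.08 (-0.86 with means of at most 3 counts set to 3). PDRG1 had 293 and 294 counts in EtOH and 131 and 121 in HgCl2, a change of -1.08 (-1.39 to -0.77). A retained intron of UXT, with 6 counts in each EtOH column and 1 and 2 in HgCl2, was at -1.78 (-5.91 to 0.84) in the fit and at -0.86, not past 2-fold, with the HgCl2 mean set to 3. URI1 was the highest at 0.21. Of the 3 tested phosducin-like cofactors, which regulate folding by CCT, 0 were called, from TXNDC9 at 0.18 to PDCL3 at 0.49, and their median was 0.40. TBCC, the 1 tested tubulin cofactor of 5, was at 0.00 (-0.26 to 0.27).

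Of the 11 genes of the BBSome and related Bardet-Biedl genes, 5 were tested, 2 were called higher and 0 lower, with a median of 0.15. The BBS2 retained intron ENST00000565781, with 12 bases of its own, had 52 and 66 counts in EtOH and 117 and 109 in HgCl2, a change of 1.08 (0.61 to 1.56). A retained intron of BBS1 was the highest at 2.03 (0.51 to 3.96), with 7 and 2 counts in EtOH and 16 and 18 in HgCl2, and ARL6, the GTPase that recruits the BBSome, the lowest at -0.19. BBS7 had 237 and 227 counts in EtOH and 217 and 250 in HgCl2, and its groups overlapped. BBS12, the third chaperonin-like gene, was listed at 0 in every column and has no base of its own in its leading transcript.

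Of the other chaperonins, retained introns of HSPD1 and HSPE1, whose proteins fold others in mitochondria, were called higher. The HSPD1 retained intron ENST00000476746, with 14 bases of its own, had 113 and 114 counts in EtOH and 215 and 206 in HgCl2, a change of 1.03 (0.70 to 1.38). That of HSPE1 had 3 and 4 counts in EtOH and 8 and 7 in HgCl2, a change of 1.21 (-0.76 to 3.60). Of the known folding clients of CCT, 9 of 21 were tested, 1 was called higher and 3 lower, with a median of -0.30. The tubulin TUBA1C had 93 and 96 counts in EtOH and 210 and 209 in HgCl2, a change of 1.29 (0.93 to 1.66). STAT3 had 239 and 258 counts in EtOH and 74 and 62 in HgCl2, a change of -1.72 (-2.14 to -1.33). A retained intron of HDAC3, with 6 and 8 counts in EtOH and 0 in HgCl2, was 2.11-fold lower with the HgCl2 mean set to 3. The upper end of its interval was -0.38 on the log2 scale, so a smaller change is not excluded. The leading transcripts of the actin genes ACTB and ACTG1 had at most 3 counts in a column. Neither HSF1 nor HSF2, the heat shock factors, passed the filter.

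**Figure D5:**
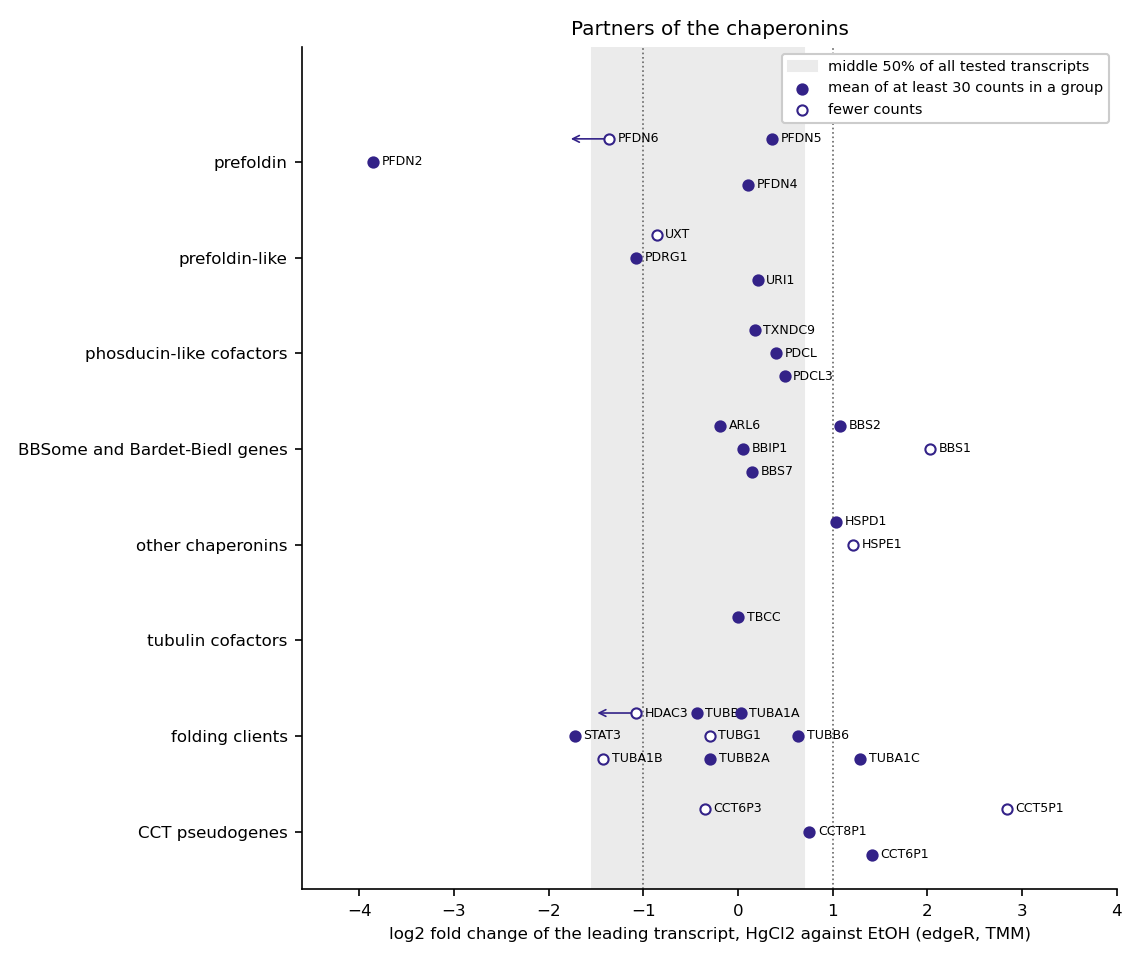
Points are the log2 fold changes of the leading transcripts of partner genes by list (x axis), filled where a group has a mean of at least 30 counts. A group mean of at most 3 counts was set to 3, arrows mark genes with 0 counts in a group, and the grey band is the middle 50% of all tested transcripts; most filled points lie between the dotted 2-fold lines, with PFDN2 and STAT3 far to the left.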

How the data were processed

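RNA-seq of H1299 cells was analysed from tables of counts and FPKM for the whole series, with 2 columns a group. Per the study's methods, the authors trimmed reads with Trim Galore, aligned them to GRCh38 with STAR 2.5.4b and counted them per transcript of an Ensembl annotation with Rsubread, and they deposited these counts without normalization. From the counts, the authors computed the deposited FPKM with DESeq2 1.26.0. The counting options are not given in the sources used here.

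The members and all lists were chosen with earlier results of these data known. The fit used edgeR 4.0.16 (glmQLFit, TMM, R 4.3.3) on the 17547 transcripts whose mean FPKM passed 1 in either group. As each group counted as 1 sample, no p-value was taken from it. Transcript models came from GENCODE 44, where 223558 of 227368 identifiers were found, and lengths implied by FPKM were within 1% of these models for 40 of 40 members. Own bases were counted against all listed transcripts. Ratios within a gene have approximate intervals.

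Named members had a mean of at least 10 counts in either group; named partners had at least 30 and a 2-fold change, or were the highest or lowest of their list. Transcripts outside these rules (among them PFDN4, BBS7, HDAC3 and PFDN6) were named after their values were seen. A few named items are left unreported. The edgeR step and the intervals were tested on simulated counts. Alternatives changed the filter, normalization, test, pseudocount, replicate block and summing, and left out each column; they used DESeq2 1.42.0 and limma 3.58.1.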

Additional observations from a re-analysis of the deposited data

How the results depend on the processing

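The log2 fold change of BBS10 was 1.19. It was 1.02 under a filter of 10 counts in every column, 1.33 with no filter, and 1.37 and 1.36 in limma on log2(FPKM + 0.1) and log2(FPKM + 1). The median of all transcripts was -0.21 over the 17547 tested, -0.83 over 39729 with no filter and 0.01 over 8720 under the 10-count filter, which are different sets. The median of the 8 CCT leading transcripts, 0.25, was 0.04 under that filter and 0.15 with filterByExpr, both without CCT7, 0.37 summed per gene, 0.39 with no filter, and 0.42 and 0.40 in limma on log2(FPKM + 0.1) and log2(FPKM + 1). Members called higher, 8, numbered 4 under the 10-count filter, 5 with filterByExpr and 13 with no filter. Members called lower, 10, numbered 2 under it and 4 in limma on log2(FPKM + 1); the stricter filters test fewer transcripts, and a larger pseudocount shrinks changes of low values. Leaving out 1 column at a time gave 1.18 to 1.20 for BBS10 and 0.23 to 0.27 for the CCT median. It gave 8 to 9 members higher and 9 to 11 lower. As the columns of a group are closer than sampling noise, these values are no replicate check. BBS10, the CCT4 mRNA, CCT5 ENST00000511995 and ENST00000508451, CCT6A ENST00000466479 and ENST00000482776, TCP1 ENST00000546204 and CCT8 ENST00000496121 and ENST00000432178 kept their calls in every alternative that gave a value, while CCT2 ENST00000550638 lost its call in 5 of 13, with values from -1.45 to -0.76. The samples share only a number: deviations of same-numbered columns correlated at 0.037 over 7156 transcripts, and the fit with a replicate block gave 1.19 for BBS10, 0.25 for the median, and 8 higher and 10 lower. Depth limits the rest, as most members have under 30 counts. Of the 47 members without bases of their own on either strand 2 had a count, among them the CCT5 mRNA.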

Other observations

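Pseudogenes of the CCT genes, which resemble the mRNAs closely, were in part counted. Of 14 listed, 4 were tested, 2 were at least 2-fold higher and 0 lower (19.2% and 34.1% of all tested transcripts were), with a median log2 fold change of 1.09 over these 4, and 5 were listed at 0 in every column. CCT6P1, an unprocessed pseudogene of CCT6A with 218 bases of its own, had 27 and 30 counts in EtOH and 71 and 67 in HgCl2, a log2 fold change of 1.41 (95% counting interval 0.77 to 2.10). CCT8P1 had 23 and 24 counts in EtOH and 36 in each HgCl2 column, a change of 0.76 (-0.03 to 1.57). CCT5P1 had 4 and 2 counts in EtOH and 20 and 19 in HgCl2, a change of 2.79 (1.09 to 5.24), and CCT6P3, with 6 and 11 counts in EtOH and 6 in each HgCl2 column, was the lowest at -0.35. Reads that fit a gene and its pseudogene cannot be told apart in these tables, and their part in the values of the genes was not tested.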
